A study of Mus musculus with 41 samples.

Results

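Group 2 innate lymphoid cells (ILC2s) are lymphocytes of barrier tissues that carry no antigen receptor and release type 2 cytokines when IL-33 and related signals reach them. The 10 genes described here are the ones most often used to recognise them: the transcriptional regulators Id2, Gata3 and Rora, the neuropeptide receptor gene Nmur1, the inhibitory receptor gene Klrg1, the cytokine receptor genes Il7r, Il2ra, Il17rb and Il9r, and the costimulatory receptor gene Icos. They were chosen by name as known ILC2 regulators and receptors, with earlier results of these data known. All 10 were found among the 21249 genes of the deposited counts, in 41 libraries of whole mouse endometriosis lesions that fall into 11 groups. None of the 10 is used by ILC2s alone, so each was followed across all groups to see which of them were lower where ILC2s are missing, and which moved with marker genes of other cells.

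In this model a 4 mm punch of donor uterus was glued inside the peritoneal wall of a recipient mouse of 12 to 16 weeks, and IL-33 (1 µg) or PBS was injected 3 times from day 7. The ILC2-deficient genotype, Nmur1iCre-eGFP Id2fl/fl, carries a Cre recombinase driven by Nmur1 together with floxed Id2 alleles, and cells that never use the Nmur1 driver keep their Id2. The competent genotypes were Nmur1iCre-eGFP (Cre controls), Id2fl/fl (floxed controls) and C57Bl/6J (wild type). The deficient groups received IL-33 after 120000 transferred ILC2s (n = 2), IL-33 alone, PBS alone, IL-33 after 250000 ILC2s, or IL-33 with added PBS (n = 4 each). Cre-control fragments were also grown in deficient recipients and deficient fragments in Cre-control recipients, both under IL-33 (n = 4 each). Competent hosts received IL-33 after 120000 ILC2s (wild type, n = 3) or IL-33 alone (Cre controls, floxed controls and wild type, n = 4 each). The labels do not say whether the transferred ILC2s came from 1 donor or several, nor that replicates were separate animals. The p-values therefore gauge sample-to-sample spread only, some of which may be technical.

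Each of the 10 genes has a role that background knowledge assigns to ILC2s and a wider use in other cells. Id2 protein holds E proteins off DNA and is needed for the whole innate lymphoid lineage, while GATA3 and the nuclear receptor RORα act further along the path to ILC2s. GATA3 also works in T cells, CD25 (Il2ra) marks regulatory T cells, KLRG1 is found on NK cells and effector T cells, and ICOS on activated T cells. In whole lesions a lower level can mean fewer cells of a type or less RNA in each of them, and the libraries cannot tell these apart.

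Genes were placed on GRCm38 (GENCODE M21), where all 10 are protein-coding. Gata3 lies on chromosome 2 from 9857078 to 9890034, Il2ra on chromosome 2 from 11642807 to 11693193, Il9r on chromosome 11 from 32187541 to 32200279 and Nmur1 on chromosome 1 from 86386303 to 86426228. Id2 lies on chromosome 12 from 25093799 to 25097140, Rora on chromosome 9 from 68653786 to 69388246 and Klrg1 on chromosome 6 from 122270596 to 122282882. Il7r lies on chromosome 15 from 9505788 to 9530176, Il17rb on chromosome 14 from 29996135 to 30008896 and Icos on chromosome 1 from 60977927 to 61000320. Exons of Il17rb overlap in part with those of Actr8 on the other strand, so reads from that stretch are uncertain because the strand setting of the counting is not given. Exons of Gata3 share 155 bases with Gm13256 and 77 with 9230102O04Rik, and those of Rora share 82 with Gm15511.

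The bases just before the start sites are shown for Nmur1, whose control region drives the Cre, and for Gata3, Il2ra and Il9r, which were lower in deficient lesions. RefSeq promoters (GRCm38.p6) were available for 8 of the 10 genes, and the 250 bases before the start are printed 5′ to 3′ along the gene's strand. Nmur1 has RefSeq start sites at 2 places, with windows at chr1:86389362-86389611 (farther upstream) and chr1:86388142-86388391 (nearer), both on the minus strand. The GENCODE spans of Nmur1 and Gata3 reach farther upstream, to 86426228 and 9890034, and the bases before those ends were not searched. The window of Gata3 is chr2:9878601-9878850 on the minus strand, that of Il2ra chr2:11642542-11642791 on the plus strand and that of Il9r chr11:32200280-32200529 on the minus strand. Capitals mark every match, on either strand, to a GATA motif, which was searched as AGATAA, with another first base as TGATAA, with another last base as AGATAG and with both changed as TGATAG, or to the E-box CANNTG, the motif bound by the E proteins that Id2 inhibits.
Nmur1 farther start: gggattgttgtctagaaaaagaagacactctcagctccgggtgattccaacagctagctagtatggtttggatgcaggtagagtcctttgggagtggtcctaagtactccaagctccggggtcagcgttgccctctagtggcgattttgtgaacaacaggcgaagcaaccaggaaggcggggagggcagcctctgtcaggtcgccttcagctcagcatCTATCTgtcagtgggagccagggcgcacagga
Nmur1 nearer start: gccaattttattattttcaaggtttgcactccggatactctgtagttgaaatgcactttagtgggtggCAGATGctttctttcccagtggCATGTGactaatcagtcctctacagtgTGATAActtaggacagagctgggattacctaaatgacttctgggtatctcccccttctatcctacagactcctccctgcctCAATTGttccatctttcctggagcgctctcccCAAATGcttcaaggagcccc
Gata3: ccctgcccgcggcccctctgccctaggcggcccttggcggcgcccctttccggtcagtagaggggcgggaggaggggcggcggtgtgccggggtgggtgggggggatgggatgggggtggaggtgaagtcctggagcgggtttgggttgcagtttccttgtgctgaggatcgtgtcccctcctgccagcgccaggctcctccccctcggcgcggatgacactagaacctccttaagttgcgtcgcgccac
Il2ra: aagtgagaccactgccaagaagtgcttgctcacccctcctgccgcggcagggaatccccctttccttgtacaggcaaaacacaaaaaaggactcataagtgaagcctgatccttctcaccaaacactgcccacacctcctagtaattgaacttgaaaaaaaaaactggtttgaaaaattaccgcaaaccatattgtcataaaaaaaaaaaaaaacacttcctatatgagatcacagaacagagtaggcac
Il9r: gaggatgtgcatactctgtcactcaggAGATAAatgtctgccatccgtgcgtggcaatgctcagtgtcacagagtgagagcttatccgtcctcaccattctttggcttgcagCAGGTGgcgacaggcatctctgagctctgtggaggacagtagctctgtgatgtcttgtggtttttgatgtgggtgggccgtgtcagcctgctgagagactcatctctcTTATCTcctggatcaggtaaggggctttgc
Il9r had 2 GATA matches and 1 E-box, the Nmur1 windows had 1 GATA match each with 0 and 4 E-boxes, and the windows of Gata3 and Il2ra had 0 of either. Of all 32851 promoter windows of this length, 26.5% held a GATA match and 66.2% an E-box, and no marked motifs of different kind overlapped in the windows shown.

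Library totals were 28884926 to 70526624 counts (median 42906356). Liver genes took over 1% of the counts in 4 libraries and at most 0.0731% in every other library. Library by library, replicate 3 of the Cre-control fragments in deficient recipients stood apart, with summed counts of 15 T cell genes at 607 CPM (counts scaled to a common library size), against 159 CPM in replicate 1 of the deficient fragments in Cre-control recipients and 16.4 to 57.4 CPM in all others. Results that rest on that library are given with and without it.

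The levels of the 10 genes differed widely when set per kilobase of exon. In deficient lesions under IL-33 the order ran from Id2 (19.7 ± 3.49 CPM per kilobase) and Il7r (14.6 ± 3.90) through Rora (6.79 ± 2.95) and Il17rb (1.36 ± 0.403) to Il9r (0.162 ± 0.0245) and Nmur1 (0.110 ± 0.0777; SD, n = 4). In the Cre controls Il7r was at 31.5 ± 14.1, Id2 at 18.1 ± 5.36, Rora at 9.40 ± 1.60, Il17rb at 3.78 ± 1.28, Il9r at 0.603 ± 0.126 and Nmur1 at 0.563 ± 0.289 CPM per kilobase. Gata3, Il2ra, Klrg1 and Icos lay between 0.552 and 0.730 CPM per kilobase in deficient lesions and between 0.588 and 3.14 in the Cre controls. For Id2, Il7r, Rora and Icos at most 1 of the 16 libraries from deficient hosts was below the lowest of the 19 from competent hosts.

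**Figure D1:**
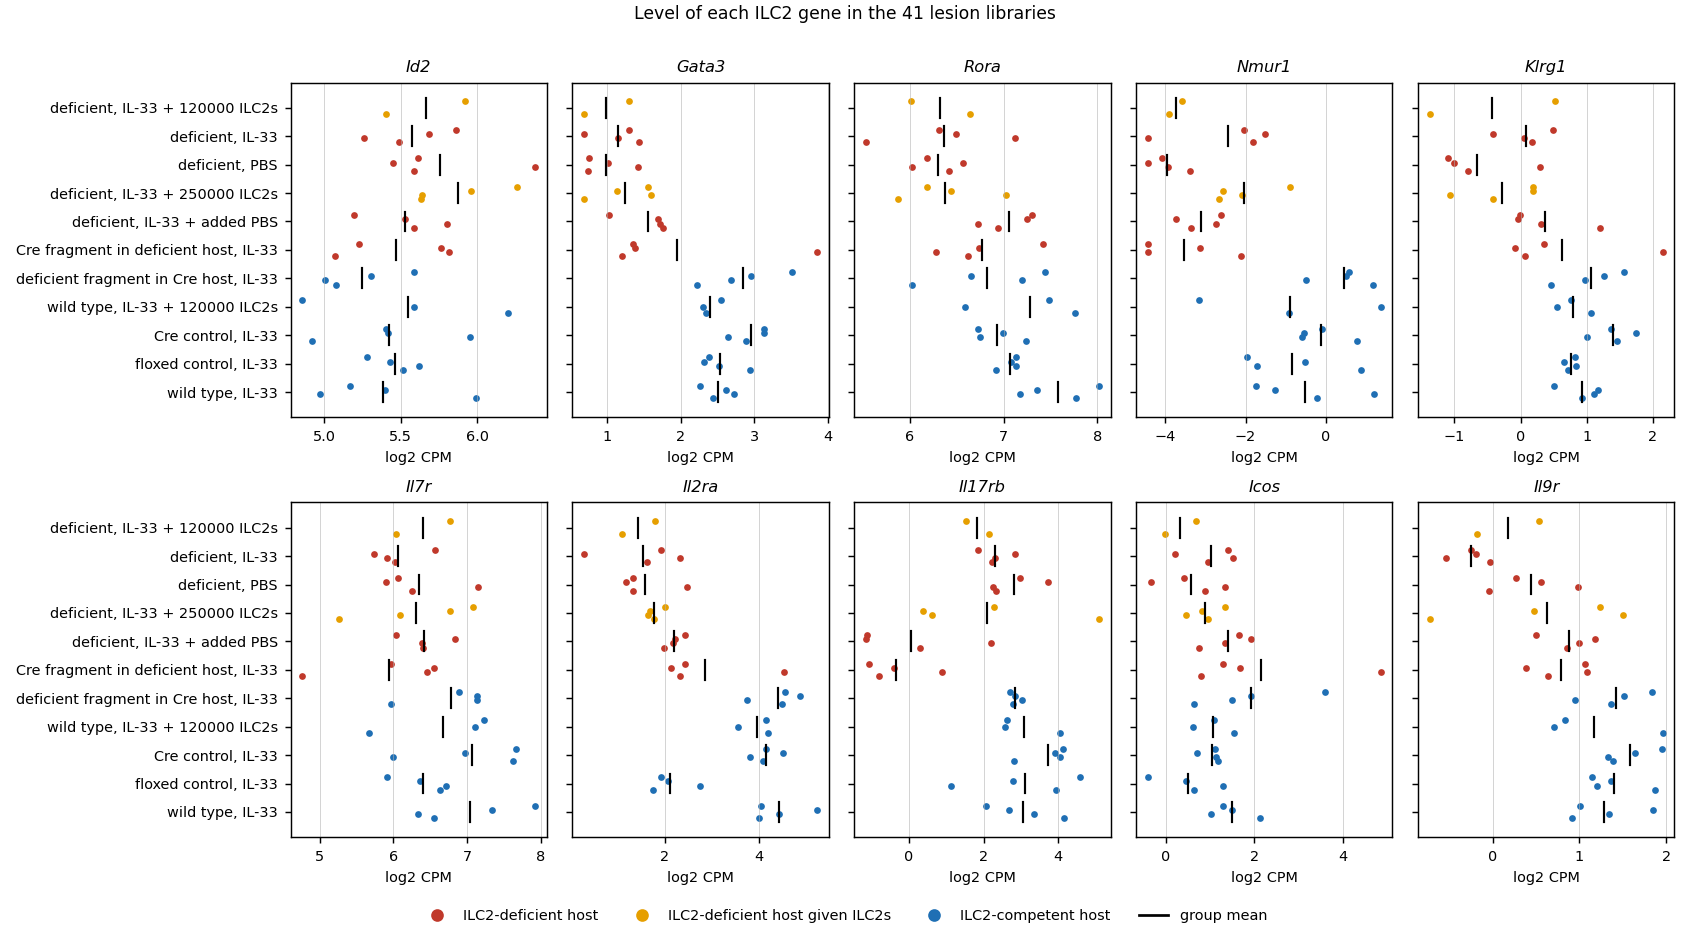
Level of each of the 10 genes (log2 CPM, prior count 2) in every library, with groups down the page and the black bar at the group mean. Gata3 separates most clearly by host: 15 of the 16 libraries from deficient hosts lie below the lowest of the 19 from competent hosts, while for Id2 none does.

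Under IL-33, deficient lesions (n = 4) were compared with the 3 competent genotypes (n = 12). Gata3, Il2ra and Il9r were lower in deficient lesions, by 2.90-fold, 3.81-fold and 3.34-fold. The other 7 genes did not pass the test. Thus 3 of 10 were called lower (adjusted p under 0.05 in edgeR's quasi-likelihood test, adjusted over all 21249 genes) and none higher, where 4.72% of all genes were called lower and 6.24% higher. The median log2 fold change of the 10 was −1.09, against −0.01 over all genes tested.

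Gata3 stood at 2.41, 1.56, 2.16 and 2.65 CPM in deficient lesions, against 8.72, 8.77, 6.22 and 7.39 CPM in Cre controls, 5.18, 4.92, 5.67 and 7.65 in floxed controls and 4.73, 6.08, 6.55 and 5.39 in wild type. The highest deficient lesion was below the lowest competent one. The log2 fold change was −1.53 ± 0.34 (SE; adjusted p = 0.0041). With the 11 groups ordered by mean Gata3, 1 of the 10 gaps between neighbouring groups was wider than the larger SD of the neighbours, that between wild type given 120000 ILC2s (5.25 ± 0.499 CPM, n = 3) and deficient lesions with added PBS (2.94 ± 0.636, n = 4). Cre-control fragments in deficient recipients stood above that gap by their mean (5.43 ± 6.00, n = 4) through 1 library at 14.4 CPM, and the other 3, at 2.24 to 2.56 CPM, were below it.

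Il9r, the receptor gene for IL-9, a growth and survival factor of ILC2s and mast cells, was at 0.797, 0.827, 0.641 and 0.934 CPM in deficient lesions. It was at 3.83, 3.06, 2.46 and 2.57 CPM in Cre controls, 2.17, 2.52, 2.25 and 3.60 in floxed controls and 1.96, 3.56, 2.48 and 1.85 in wild type. No deficient lesion reached the lowest competent one, and the log2 fold change was −1.74 ± 0.31 (adjusted p = 0.00063). Among other deficient groups Il9r averaged 1.36 ± 0.428 CPM with PBS alone and 1.83 ± 0.360 with IL-33 and added PBS (SD, n = 4 each), and no gap between neighbours in the order of the 11 group means exceeded the larger SD.

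Il2ra, the chain that gives the IL-2 receptor its high affinity, behaved differently among the controls. It was at 3.70, 1.16, 4.94 and 3.02 CPM in deficient lesions, 17.7, 22.9, 14.1 and 17.01 CPM in Cre controls, 3.74, 4.10, 6.68 and 3.28 in floxed controls and 16.5, 37.7, 21.4 and 15.9 in wild type. The floxed controls overlapped the deficient lesions, while Cre controls and wild type lay above both. The log2 fold change against the 3 genotypes together was −1.93 ± 0.39 (adjusted p = 0.0017). Against floxed controls alone it was −0.47 ± 0.42 (adjusted p = 0.50), and against Cre controls alone −2.48 ± 0.44 (adjusted p = 0.0014).

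The floxed controls were themselves lower in Il2ra than the other competent genotypes, at 4.45 ± 1.52 CPM (SD, n = 4) against 20.4 ± 7.56 (n = 8), with a log2 fold change of −2.19 ± 0.41 (adjusted p = 0.0025). It was the 1 member of 10 called in that comparison, where 2.04% of all genes were called, and its floxed libraries were all below the others, as held for 1.49% of all genes. The columns of the floxed controls stand next to one another in the deposited table, as do those of wild type, which have names of another form. Those of Cre controls and deficient lesions under IL-33 interleave. The labels name no batch, so a difference that goes with column order cannot be told apart from the floxed or wild-type genotype. Against the Cre controls alone Gata3 (−1.82 ± 0.39, adjusted p = 0.0092) and Il9r (−1.89 ± 0.35, adjusted p = 0.0019) were also lower in deficient lesions. Neither Gata3 nor Il9r passed the test between floxed and other competent controls (−0.18 ± 0.33 and −0.04 ± 0.29, adjusted p = 0.79 and 0.95).

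Nmur1, the receptor gene for the nerve-derived peptide neuromedin U and the gene whose control region drives the Cre, had very few reads. In deficient lesions it was at 0.199, 0.306, 0 and 0.239 CPM, from 0 to 11 counts per library. It was at 0.884, 0.642, 0.622 and 1.67 CPM in Cre controls, 0.209, 0.651, 0.258 and 1.80 in floxed controls and 0.254, 0.369, 2.24 and 0.807 in wild type. Competent lesions spread widely and overlapped the deficient ones, and the difference did not pass the test (−2.20 ± 0.81, adjusted p = 0.075). Summed over the group, 30 Nmur1 counts in deficient lesions came to 0.194 CPM of the unscaled library totals (exact 95% Poisson interval 0.131 to 0.277, counting error only), against 155 counts and 0.975 CPM in Cre controls (0.828 to 1.14). Cre controls did not pass the test against the other competent genotypes (0.22 ± 0.71, adjusted p = 0.95), a comparison in which 0.0847% of all genes were called.

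Klrg1, whose product binds cadherins, was at 1.35, 0.705, 0.988 and 1.09 CPM in deficient lesions, against 1.96 to 3.31 CPM in Cre controls, 1.53 to 1.73 in floxed controls and 1.37 to 2.21 in wild type. Every deficient lesion was below every competent one, as held for 1.43% of all genes, but the log2 fold change of −0.96 ± 0.37 did not pass the test over all genes (adjusted p = 0.091). Rora (−0.74 ± 0.26, adjusted p = 0.060), Il7r (−0.84 ± 0.36, adjusted p = 0.13) and Il17rb (−1.22 ± 0.69, adjusted p = 0.27) did not pass either, and their groups overlapped.

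Id2 and Icos showed no lower level in deficient lesions. Id2 was at 38.3 to 58.1 CPM in deficient lesions against 30.2 to 63.6 CPM over the 12 competent ones, with a log2 fold change of 0.13 ± 0.21 and an approximate 95% interval from −0.29 to 0.56. Its exons stay intact in cells that do not use the driver, so its level in a whole lesion does not check the deletion. Icos was at 2.59, 1.10, 2.80 and 1.89 CPM in deficient lesions, against 1.58 to 2.21 CPM in Cre controls, 0.710 to 2.39 in floxed controls and 1.99 to 4.32 in wild type. Its log2 fold change was 0.03 ± 0.50 with an interval from −0.99 to 1.06, which leaves room for a change of either sign.

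**Figure D2:**
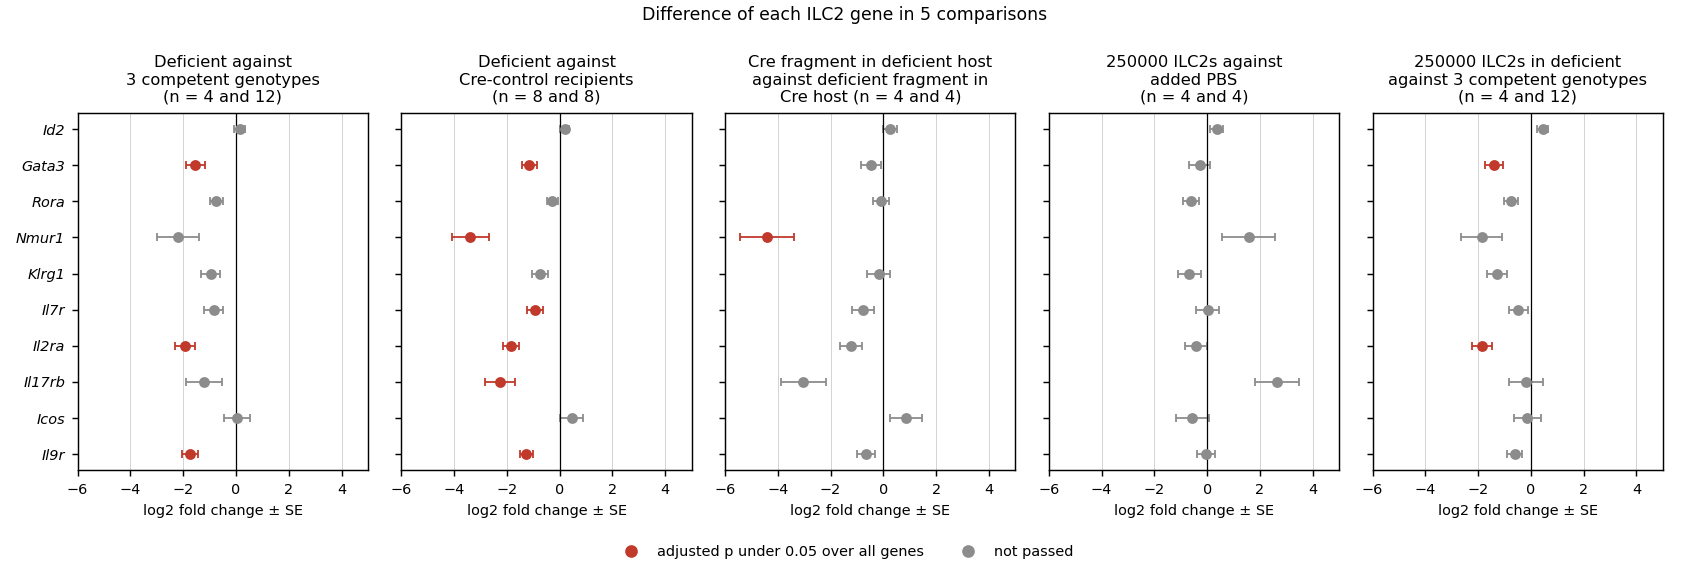
Log2 fold change ± SE of each gene in 5 comparisons, with red for adjusted p under 0.05 over all genes. Gata3, Il2ra and Il9r were lower in both comparisons on the left, and Nmur1 had the most negative estimate of the 10 in each of the 3 left panels.

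The crossed fragments asked whether these levels go with the recipient or with the uterine fragment. Lesions in deficient recipients, whatever their fragment, were compared with lesions in Cre-control recipients (n = 8 each). Nmur1, Il17rb, Il2ra, Il9r, Gata3 and Il7r were lower in deficient recipients, which is 6 of 10 genes with none higher. In this comparison 6.29% of all genes were called lower and 5.02% higher. It shares the IL-33-treated deficient and Cre-control libraries with the comparison above. The columns of each crossed group stand next to one another, so a difference that goes with column order cannot be told apart from the crossing. This also limits the comparison by recipient in part. Between fragment genotypes (deficient against Cre control, n = 8 each) none of the 10 was called in edgeR or DESeq2 (3 at unadjusted p under 0.05), and 0.00471% of all genes were.

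Nmur1 was at 0, 0.0673, 0 and 0.185 CPM in Cre-control fragments grown in deficient recipients, against 1.45, 1.38, 0.663 and 2.22 CPM in deficient fragments grown in Cre-control recipients. Every lesion in a deficient recipient, up to 0.306 CPM, was below every lesion in a Cre-control recipient, from 0.622 CPM upward, as held for 0.866% of all genes. The log2 fold change by recipient was −3.38 ± 0.68 (adjusted p = 0.0015). Fragments that themselves carry both the Cre and the floxed alleles thus had 230 Nmur1 counts in 4 libraries when grown in Cre-control recipients, and Cre-control fragments had 10 counts in deficient ones.

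Il17rb, a chain of the IL-25 receptor, was at 0.434, 0.718, 1.80 and 0.528 CPM in Cre-control fragments in deficient recipients and at 3.54, 7.11, 4.88 and 4.65 CPM in deficient fragments in deficient recipients. It was at 6.45, 7.09, 8.16 and 6.83 CPM in deficient fragments in Cre-control recipients and at 17.5, 14.9, 16.5 and 7.05 CPM in Cre controls. The log2 fold change by recipient was −2.26 ± 0.58 (adjusted p = 0.010). The transferred fragments alone differed by −3.04 ± 0.85 without passing the test (adjusted p = 0.071), and their libraries did not overlap, as held for 4.31% of all genes. The summed endometrial epithelium genes ranged from 22.3 to 804 CPM in Cre-control fragments in deficient recipients and from 35.8 to 265 CPM in deficient fragments in Cre-control recipients, and their part in the Il17rb difference was not tested.

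Il2ra fell by 1.86 ± 0.31 on the log2 scale by recipient (adjusted p = 0.00018), Il9r by 1.27 ± 0.24 (adjusted p = 0.00089) and Gata3 by 1.15 ± 0.27 (adjusted p = 0.0059). Il7r, the IL-7 receptor α chain that also serves the TSLP receptor, fell by 0.93 ± 0.30 (adjusted p = 0.039). The call on Il7r was lost when any of 10 of the 16 libraries was left out, with adjusted p from 0.051 to 0.086, and with only these 4 groups in the fit both Gata3 and Il7r missed the threshold (adjusted p = 0.080 and 0.070). Rora, Klrg1, Id2 and Icos did not pass (−0.28 ± 0.21, −0.76 ± 0.30, 0.18 ± 0.18 and 0.45 ± 0.44). The Icos estimate turned to −0.48 ± 0.33 (adjusted p = 0.382) without the 1 library at 28.9 CPM.

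One lesion weighed heavily on the crossed groups. Replicate 3 of the Cre-control fragments in deficient recipients had 14.4 CPM of Gata3, 23.1 of Il2ra, 4.38 of Klrg1 and 28.9 of Icos, while the other 3 libraries of that group had 2.24 to 2.56, 4.35 to 5.31, 0.897 to 1.23 and 1.69 to 3.16 CPM. In that library the summed T cell genes were at 607 CPM, those of NK cells and ILC1s at 181 CPM and those of regulatory T cells at 229 CPM, against at most 43.2, 17.4 and 123 CPM in the rest of its group. Il5 and Il13, the main ILC2 cytokine genes, were at 0.122 and 0.213 CPM there, inside the range of the other 3 for Il5 (0.0897 to 0.264) and next to it for Il13 (0.112 to 0.211). The part of other lymphocytes in its levels was not tested.

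Without that library the differences by recipient were −1.71 ± 0.18 for Gata3 and −2.32 ± 0.26 for Il2ra, and Klrg1 passed the test by recipient (−1.17 ± 0.27, adjusted p = 0.0044). Between the transferred fragments alone (n = 4 each), Nmur1 was the 1 gene of 10 called (−4.42 ± 1.03, adjusted p = 0.025), where 1.01% of all genes were called. That call was lost when any of 5 of the 8 libraries was left out (adjusted p from 0.062 to 0.084). Gata3 and Il2ra were not called between them with the library (−0.47 ± 0.38 and −1.23 ± 0.42, adjusted p = 0.64 and 0.16) and were lower without it (−1.62 ± 0.26 and −2.18 ± 0.38, adjusted p = 0.0016 and 0.0029). None of the 10 was called for a dependence of the recipient difference on the fragment in edgeR (4 at an unadjusted p under 0.05), where 0.414% of all genes were. The estimate was 3.51 ± 1.14 for Il17rb (adjusted p = 0.115) and −3.42 ± 0.89 for Icos (adjusted p = 0.068), and Icos passed in DESeq2 (adjusted p = 0.0095). Without the lesion at 28.9 CPM of Icos these were 4.13 ± 1.22 for Il17rb and −1.51 ± 0.65 for Icos (adjusted p = 0.208 and 0.295).

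Transferred ILC2s were given to ask whether they restore the lesion. After 250000 cells (n = 4) against added PBS (n = 4), none of the 10 genes was called in edgeR or DESeq2, where no gene of the table was called in edgeR (1849 at an unadjusted p under 0.05) and 14 were in DESeq2, and 2 of the 10, Rora and Il17rb, had an unadjusted p under 0.05. Gata3 was at 2.90, 2.15, 2.98 and 1.57 CPM after the cells, against 1.99, 3.18, 3.25 and 3.34 CPM with added PBS, so the groups overlapped (−0.29 ± 0.39, interval −1.08 to 0.50). Nmur1 had 43 counts in 4 libraries after the cells and 12 with added PBS, of which 26 were in 1 library, and the difference did not pass (1.58 ± 1.00, adjusted p = 0.63). Il17rb was at 4.85, 1.24, 1.48 and 34.0 CPM after the cells, against 0.415, 0.404, 4.50 and 1.19 CPM with added PBS (2.66 ± 0.83, adjusted p = 0.57).

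Set against the 3 competent genotypes (n = 12), lesions given 250000 ILC2s were still lower in Gata3 (−1.41 ± 0.34, adjusted p = 0.023) and Il2ra (−1.85 ± 0.39, adjusted p = 0.0075), 2 of 10 genes where 2.22% of all genes were called. All 4 of these Gata3 values were below the competent minimum of 4.73 CPM, as held for 0.235% of all genes. The Gata3 call was lost when replicate 1, 2 or 4 of the lesions given ILC2s was left out (adjusted p = 0.058, 0.080 and 0.15). Il9r was at 2.31, 1.35, 2.80 and 0.559 CPM after the cells, overlapping the competent lesions (1.85 to 3.83 CPM), and did not pass (−0.61 ± 0.28, adjusted p = 0.29).

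After 120000 ILC2s, Gata3 was at 2.40 and 1.56 CPM in deficient lesions (n = 2) and at 5.81, 4.88 and 5.05 CPM in wild type (n = 3), against 1.56 to 2.65 CPM in deficient and 4.73 to 6.55 CPM in wild-type lesions under IL-33 without cells. The ranges with and without cells overlapped in both genotypes. Il2ra was at 3.39 and 2.08 CPM in deficient and at 17.7, 11.7 and 18.3 CPM in wild-type lesions given the cells. None of the 10 genes was called in either genotype in edgeR or DESeq2, and 0 of the 10 had an unadjusted p under 0.05. No gene of the table was called in edgeR, with 400 at an unadjusted p under 0.05 in deficient and 841 in wild-type lesions, and DESeq2 called 9 and 3.

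IL-33 itself moved none of the 10 past the threshold in deficient lesions (n = 4 against 4 given PBS; edgeR and DESeq2), where 0.00941% of all genes were called and 2 of the 10, Nmur1 and Il9r, had an unadjusted p under 0.05. Nmur1 was at 0.199, 0.306, 0 and 0.239 CPM with IL-33, against 0.0127, 0, 0.0192 and 0.0497 CPM with PBS, 30 counts against 5, and the difference did not pass (2.98 ± 1.13, adjusted p = 0.62). Il9r was at 0.641 to 0.934 CPM with IL-33, against 0.927 to 1.92 CPM with PBS (−0.76 ± 0.34, adjusted p = 0.68). PBS was given to deficient mice alone, so a response to IL-33 in competent lesions cannot be read. The columns of these PBS lesions stand next to one another, so a difference that goes with column order cannot be told apart from IL-33.

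To see which marker genes each of the 10 moved with, their deviations from the group mean were correlated over the 41 libraries with 12 scores, 11 marker lists and the pair Il5 and Il13 (120 relations, permutation within groups, Benjamini-Hochberg adjustment). Since group means were removed, a relation here does not rest on the differences described above. Of the 120 relations, 33 had an adjusted p under 0.05. None of the 10 genes was related to Il5 and Il13 within groups, with r from −0.33 to 0.30. In deficient hosts, with or without transferred ILC2s, Il5 had 0 to 10 counts per library and Il13 had 0 to 18. Counting error therefore limits this score, and the lack of a relation cannot be read as absence of one.

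**Figure D3:**
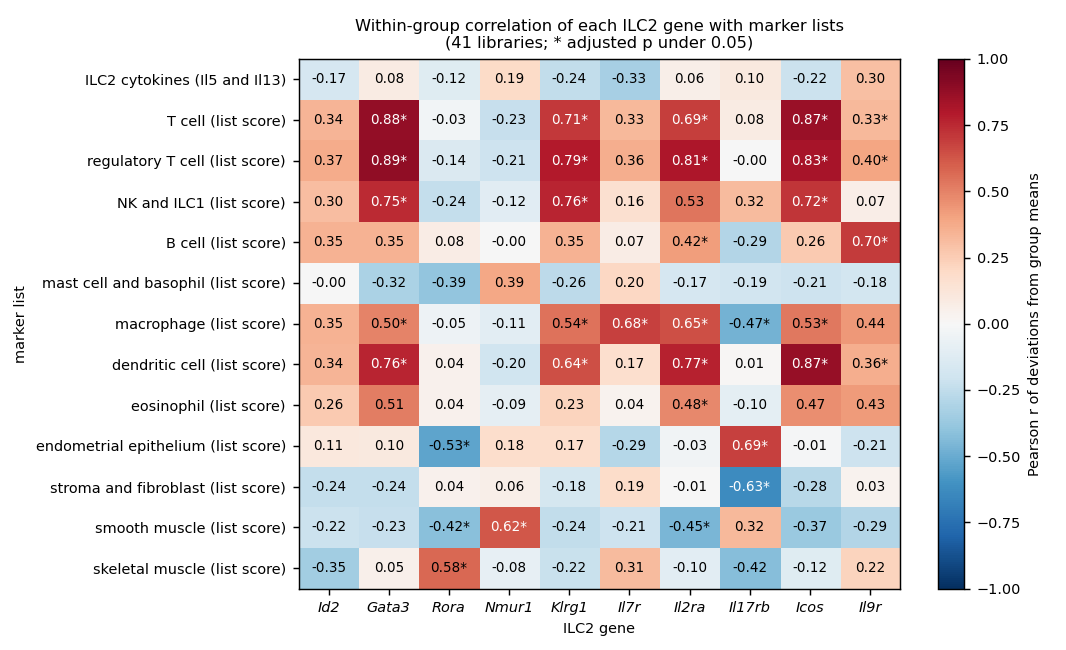
Pearson r of each gene (columns) with marker list scores (rows) over deviations from group means in 41 libraries, with an asterisk for adjusted p under 0.05. Gata3, Klrg1, Il2ra and Icos form a block with T cell and regulatory T cell genes, whereas Nmur1, Il17rb, Rora, Il7r and Il9r each have their highest value elsewhere. Il9r also passed with T cell and regulatory T cell genes, and the genes of the block passed with macrophage and dendritic cell genes too.

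Gata3 followed regulatory T cell genes (r = 0.89, adjusted p = 0.00048; rho = 0.80) and T cell genes (r = 0.88, adjusted p = 0.0013; rho = 0.76). With the 2 libraries farthest from the median left out these were 0.65 and 0.64. Gata3 also passed with NK and ILC1, macrophage and dendritic cell genes. Within deficient hosts these relations were 0.95, 0.53 and 0.85, and 0.70, 0.56 and 0.27 without the lesion rich in T cell genes. Within deficient hosts the relation to T cell genes was 0.96 over 16 libraries and 0.78 without the lesion rich in T cell genes, and within the 19 libraries of competent hosts it was 0.75 (adjusted p = 0.0105, 0.0327 and 0.0671, permutation tests added after the values were seen). The 3 closest of 17088 genes were Skap1 (r = 0.90), Bcl11b (0.89) and Ptprcap (0.89).

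Under IL-33 the summed T cell genes of deficient lesions, at 21.9 to 36.3 CPM, lay inside the range of the 12 competent lesions, at 16.4 to 38.3 CPM, while Gata3 was at 1.56 to 2.65 CPM in deficient and 4.73 to 8.77 CPM in competent lesions. Of the 15 T cell genes only Cd4 was called in deficient lesions, higher at 5.56 against 2.00 CPM (1.54 ± 0.44, edgeR adjusted p = 0.020). Over all genes 6.24% were called higher there. A gene that was not called may still differ, and the part of T cells in the Gata3 difference was not tested. By recipient Cd8b1 (2.34 ± 0.70), Cd8a (2.31 ± 0.68) and Cd4 (1.42 ± 0.41) were higher (edgeR adjusted p = 0.026, 0.024 and 0.022), where 5.02% of all genes were. All 3 of these calls by recipient were lost without the library at 607 CPM of T cell genes: Cd8b1 was then at 0.38 ± 0.46, Cd8a at 0.48 ± 0.46 and Cd4 at 0.97 ± 0.37 (adjusted p = 0.655, 0.552 and 0.0912). The median log2 fold change of the 15 T cell genes by recipient was 1.03 with that library and −0.11 without it. Without it 1 of the 15 was called, Lat, which was lower (−0.97 ± 0.26, edgeR adjusted p = 0.0132). With it Lat did not pass (−0.41 ± 0.32, adjusted p = 0.454).

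**Figure D4:**
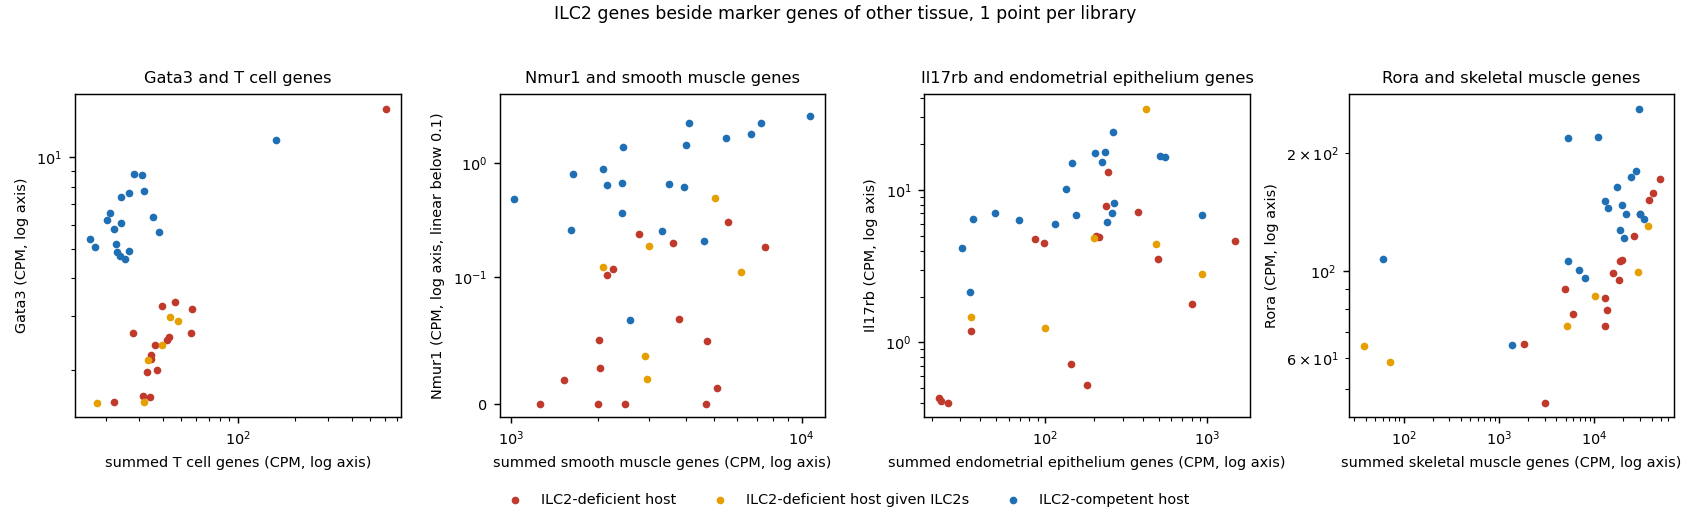
Level of 4 genes (CPM) against the summed level of a marker list in the same library (CPM, log axes), 1 point per library and coloured by host. Gata3 lies lower in deficient hosts than in competent hosts over the range of T cell genes that both cover, and the library at 607 CPM of T cell genes has 14.4 CPM of Gata3.

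Icos moved with dendritic cell (r = 0.87, adjusted p = 0.00040; rho = 0.81) and T cell genes (r = 0.87, adjusted p = 0.0012; rho = 0.67). With the 2 farthest libraries left out these were 0.64 and 0.57. Its closest genes were H2-D1 (0.90), Cd3e (0.89), a chain of the T cell receptor complex, and the chemokine receptor gene Cxcr6 (0.87). Cd3e is itself in the T cell list. Icos also passed with regulatory T cell, NK and ILC1 and macrophage genes. Its relation to NK and ILC1 genes within deficient hosts was 0.74, and −0.11 without the lesion rich in T cell genes. Icos had its highest level, 28.9 CPM, in the lesion richest in T cell genes and its second highest, 12.1 CPM, in the next one, and elsewhere stayed at 0.710 to 4.32 CPM.

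Klrg1 followed regulatory T cell genes (r = 0.79, adjusted p = 0.00040; rho = 0.78) and NK and ILC1 genes (r = 0.76, adjusted p = 0.0014; rho = 0.72), at 0.70 and 0.62 without the 2 farthest libraries. Its closest genes were Sh2d2a (0.81), Il2rb (0.79), the signalling chain of the IL-2 and IL-15 receptors, and Klrb1c (0.79), which encodes the NK cell antigen NK1.1. Klrb1c is itself in the NK and ILC1 list. Klrg1 also passed with T cell, macrophage and dendritic cell genes. Il2ra followed regulatory T cell (r = 0.81, adjusted p = 0.00060; rho = 0.81) and dendritic cell genes (r = 0.77, adjusted p = 0.0013; rho = 0.78), at 0.79 and 0.77 without the 2 farthest. Its closest genes were Slamf6 (0.84), Pdcd1 (0.83) and Birc3 (0.83). Il2ra also passed with T cell, B cell, macrophage, eosinophil and smooth muscle genes, the last at −0.57 within deficient hosts.

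The 9 regulatory T cell genes summed to 94.9 to 115 CPM in deficient lesions, 115 to 143 in Cre controls, 91.1 to 116 in floxed controls and 97.7 to 115 in wild type, and none of the 9 was called between deficient and competent lesions. Wild type and floxed controls overlapped in this sum while their Il2ra did not. By recipient Lrrc32 of this list was lower (−0.41 ± 0.14, edgeR adjusted p = 0.0436) and Ikzf2 higher (0.79 ± 0.25, adjusted p = 0.0397). Without the library rich in T cell genes neither passed (adjusted p = 0.107 and 0.170). Tnfrsf9 was then lower (−1.39 ± 0.35, adjusted p = 0.0084), which it was not called with that library (adjusted p = 0.0599).

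Nmur1 had another partner. It followed the 7 smooth muscle genes (r = 0.62, adjusted p = 0.013; rho = 0.59, adjusted p = 0.012), at 0.62 without the 2 farthest libraries. The relation was 0.63 in competent hosts (n = 19) and 0.69 in deficient hosts (n = 16; adjusted p = 0.086 and 0.024). Its closest genes were Inafm2 (0.82), Gm17029 (0.82) and Whrn (0.79). The smooth muscle genes summed to 2472 to 5587 CPM in deficient lesions and 1612 to 7267 CPM in the 12 competent ones, and none of the 7 was called between them or by recipient. They summed to 1264 to 7469 CPM in Cre-control fragments in deficient recipients and 2415 to 4104 CPM in deficient fragments in Cre-control recipients.

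Il17rb went with endometrial epithelium genes (r = 0.69, adjusted p = 0.0012; rho = 0.65) and against stroma and fibroblast genes (r = −0.63, adjusted p = 0.0052; rho = −0.53). These were 0.64 and −0.52 without the 2 farthest libraries, and the epithelial relation was 0.75 in deficient hosts and 0.65 in competent hosts (adjusted p = 0.0105 and 0.0633). Its closest genes were Stx18 (0.81), Ccp110 (0.80) and Exph5 (0.79). Il17rb also passed with macrophage genes, at −0.14 within deficient hosts. Replicate 4 of the lesions given 250000 ILC2s, with 34.0 CPM of Il17rb, had 416 CPM of summed epithelial genes, against 34.9 to 199 CPM in the other 3 libraries of its group.

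Il7r, Rora and Il9r differed in the lists they went with. Il7r followed macrophage genes (r = 0.68, adjusted p = 0.00040; rho = 0.71, and 0.66 without the 2 farthest libraries), at 0.79 within deficient hosts and 0.48 within competent hosts (adjusted p = 0.0133 and 0.0633), and its closest genes were Arhgap25 (0.95), Atp6v1a (0.94) and Cd84 (0.94). Il9r followed B cell genes (r = 0.70, adjusted p = 0.0042; rho = 0.63, and 0.70 without the 2 farthest libraries), at 0.79 within deficient hosts and 0.44 within competent hosts (adjusted p = 0.0134 and 0.160, permutation tests). Over the 41 libraries Il9r also passed with T cell, regulatory T cell and dendritic cell genes. Within deficient hosts these relations were 0.40, 0.46 and 0.37 (adjusted p = 0.191, 0.148 and 0.275, permutation tests). The genes closest to Il9r were Gm47324 (0.76) and the B cell genes Siglecg (0.74) and Cr2 (0.70). Cr2 is itself in the B cell list. The 9 B cell genes had a median log2 fold change of −0.19 between deficient and competent lesions, and none of them was called.

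Rora ran against epithelial genes (r = −0.53, adjusted p = 0.0078; rho = −0.49), at −0.73 within deficient hosts and −0.21 within competent hosts (adjusted p = 0.0105 and 0.432, permutation tests). A list of 8 skeletal muscle genes, set beside it after these values were seen, gave r = 0.58 (rho = 0.68; adjusted p = 0.00060 and 0.00080 over 20 added relations), at 0.82 within deficient hosts and 0.43 within competent hosts (adjusted p = 0.00446 and 0.0846). Skeletal muscle genes summed to 2996 to 30428 CPM in deficient lesions and 60.2 to 33074 CPM in the 12 competent ones. Rora also passed with smooth muscle genes, at −0.25 within deficient hosts and −0.46 within competent hosts. Id2 passed with none of the 12 scores, its closest genes were Tor1a (0.81), Slc9a3r1 (0.79) and Rasgef1b (0.78), and an added list of endothelial genes gave r = −0.40 (rho = −0.49; adjusted p = 0.028 and 0.026).

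Counts for lists of genes around the 10 stand beside these shares of all genes. In deficient lesions 4.72% were called lower and 6.24% higher, and by recipient 6.29% lower and 5.02% higher. The same shares apply to the lists of the next paragraph. Of 24 other ILC2 genes 20 were measured, and 4 were lower and none higher in deficient lesions: Il13 (−4.57 ± 0.57, adjusted p = 1.14e-05), Il5 (−4.12 ± 0.54, adjusted p = 1.99e-05), the IL-33 receptor gene Il1rl1 (−1.72 ± 0.38, adjusted p = 0.0038) and the TSLP receptor gene Crlf2 (−0.82 ± 0.20, adjusted p = 0.0065). By recipient 6 were lower, among them Arg1 (−1.98 ± 0.48, adjusted p = 0.0065), and Thy1 was higher (0.61 ± 0.18, adjusted p = 0.024; 0.49 ± 0.17 and 0.0636 without the library rich in T cell genes). Of 17 transcription factors of innate lymphoid cells, which include Id2, Gata3 and Rora, Gata3 and Gfi1 (−1.60 ± 0.50, adjusted p = 0.035) were lower. By recipient Gata3 was called, and Gfi1 passed without the library rich in T cell genes (−1.68 ± 0.29, adjusted p = 0.00036) but not with it (−0.87 ± 0.39, adjusted p = 0.153). Il5 was at 0.0374 ± 0.0319 CPM in deficient lesions (SD, n = 4) and at 1.21 ± 0.442, 0.484 ± 0.143 and 0.565 ± 0.245 CPM in Cre controls, floxed controls and wild type (n = 4 each), and floxed controls and wild type overlapped.

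Among 7 relatives and partners of Id2, Id1 was higher in deficient lesions (19.9 against 11.7 CPM; 0.82 ± 0.25, adjusted p = 0.029), and by recipient the E protein gene Tcf4 was higher (0.35 ± 0.11, adjusted p = 0.025). Of 12 ligand genes of the receptors, 8 were measured and none was called in either comparison. Of 12 partner chains and signalling genes, Crlf2, which pairs with the Il7r product, was lower and Il17ra, which pairs with that of Il17rb, was higher in deficient lesions (0.63 ± 0.14, adjusted p = 0.0031). By recipient Crlf2 (27.7 against 48.5 CPM; −0.81 ± 0.16, adjusted p = 0.0015) and Cish, a target of STAT5 below the IL-2 and IL-7 receptors (19.3 against 41.7 CPM; −1.10 ± 0.22, adjusted p = 0.0013), were lower.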

How the data were processed

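RNA-seq libraries from whole lesions were analysed from the raw counts per gene that the authors deposited, 21249 genes in 41 libraries, with no column left unmapped. Reads were trimmed with Trimmomatic, aligned with STAR to GRCm38 and counted with HTSeq, per the submitters' processing notes; the annotation and the strand setting are not given in the sources used here. Groups were taken from the labels. Counts were tested with edgeR 4.0.16 (R 4.3.3; limma 3.58.1), by quasi-likelihood on 11 group means with TMM scaling, over 12 comparisons and with Benjamini-Hochberg adjustment over all genes at 0.05. Levels are CPM, SE is the size of the log2 fold change over the root of F, and intervals use 30 residual degrees of freedom. DESeq2 1.42.0, other scalings, filters, left-out libraries and a replicate block were alternatives. The model was tested on simulated data. Replicate numbers did not pair the samples, since all correlations of same-numbered deviations exceeded 0.1 in 4 of 45 group pairs, none of them a pair compared. Likeness used log2 CPM (prior count 2) less the group mean, with 100000 permutations within groups.

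All 10 genes were named in every comparison, with Il5, Il13 and Il1rl1 for reference, the 3 closest genes with a mean of at least 1 CPM (those of Rora are not reported here), and at most 4 called genes per list and comparison, the largest changes first. Members and lists (20 lists, 198 of 212 distinct genes measured) were chosen with earlier results of these data known. Replicates of a group differed by more than counting noise (20.3 to 1326 times the counting variance over 58 pairs, from chi-square). With 28884926 to 70526624 counts per library, counting error limited Nmur1, Il5 and Il13 most.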

Additional observations from a re-analysis of the deposited data

Results flagged for a closer look

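Each gene was tested in each group of 4 libraries, 90 combinations in all. In 10 of them 1 library lay far from the other 3 (gap over range above the 95% critical value of 0.829). Chance would flag about 1 in 20 independent sets, but the genes share libraries, so these flags are not independent. Replicate 3 of the Cre-control fragments in deficient recipients was high in Gata3 (14.4 CPM, next 2.56), Klrg1 (4.38, next 1.23), Il2ra (23.1, next 5.31) and Icos (28.9, next 3.16), with 607 CPM of summed T cell genes. Replicate 3 of the deficient lesions given PBS was high in Id2 (83.1 CPM, next 48.9), Klrg1 (1.17, next 0.530) and Il2ra (5.50, next 2.45), with 56.2 CPM of T cell genes against 31.3 to 34.4 CPM in the rest of its group. Il17rb was high in replicate 4 of the deficient lesions given 250000 ILC2s (34.0 CPM, next 4.85). Gata3 was low in replicate 1 of the deficient lesions with added PBS (1.99 CPM, next 3.18), and Icos in replicate 2 of the Cre controls (1.58 CPM, next 2.12). The part of other cells in these values was not tested.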

How the results depend on the processing

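Between deficient and competent lesions, 3 of the 10 genes were called, 5 in DESeq2 (Rora and Nmur1 besides Gata3, Il2ra and Il9r) and 3 to 4 when 1 library was left out. By recipient 6 were called, and 5 to 7 when 1 library was left out. Between the transferred fragments 1 was called, 2 in DESeq2 (Nmur1 and Il17rb), 0 with only the groups compared in the fit, 2 without both lesions highest in Icos (chosen after seeing the data) and 0 to 2 when 1 library was left out. Between lesions given 250000 ILC2s and competent lesions 2 were called, and 1 to 3 when 1 library was left out. For the dependence of the recipient difference on the fragment 0 were called, 1 in DESeq2 (Icos) and 0 to 1 when 1 library was left out. Of the 33 relations to marker lists, 15 passed without the 2 libraries farthest from the median. The causes were not tested. No called value changed sign in these alternatives. With replicate number as a block, the members called were again 3 of 10 between deficient and competent lesions and 6 by recipient, and no count of members called changed. Over all genes, 2329 were called between deficient and competent lesions, 698 without replicate 4 and 1433 without replicate 2 of the deficient lesions, and 813 against Cre controls alone. The highest total there with 1 library left out was 2462. By recipient 2403 were called, and 1602 to 2446 when 1 library was left out. Between lesions given 250000 ILC2s and competent lesions 471 were called, with both lower totals and totals up to 1863 when 1 library was left out. The counts of members cannot be judged without such totals, which are not given for DESeq2 in these comparisons.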

Other observations

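Genes of other cells also differed with the host. Ear2, an eosinophil ribonuclease gene, was at 4.63 CPM in deficient and 39.05 CPM in competent lesions (−3.03 ± 0.36, edgeR adjusted p = 7.26e-06), and Batf3, a transcription factor gene of conventional dendritic cells, at 2.70 and 9.76 CPM (−1.85 ± 0.29, adjusted p = 0.00018). By recipient both were lower too, Ear2 at 5.204 against 41.7 CPM and Batf3 at 3.74 against 11.2 CPM. Dendritic cell genes did not move as one, since Flt3 of the same list was higher by recipient (0.91 ± 0.22, edgeR adjusted p = 0.0066). Flt3 also passed without the library rich in T cell genes (0.67 ± 0.19, adjusted p = 0.020).

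Among the 10 genes, over deviations from group means in 41 libraries that share their depth and cell mixture, Gata3 went most closely with Klrg1 (r = 0.74) and Icos (r = 0.73), and Il2ra with Icos and Klrg1 (r = 0.68 each). The lowest values were those of Rora with Nmur1 (r = −0.45) and Il7r with Il17rb (r = −0.41). These are given as descriptions.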
